A study of Rattus norvegicus with 138 samples.

Results

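Transcripts of 10 neuropeptide genes were measured in micropunches of 3 medullary nuclei that control the circulation, the nucleus of the solitary tract (NTS), the caudal ventrolateral medulla (CVLM) and the rostral ventrolateral medulla (RVLM). The genes were chosen by name, with earlier results of these data known. They were Cartpt, Sst, Cck, Nts, Adcyap1, Grp, Vip, Nmb, Nmu and Gcg, and each matched 1 row among the 32883 genes of every table. The gene Nts encodes neurotensin and is not to be confused with the nucleus NTS.

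The series compared female spontaneously hypertensive rats (SHRs, substrain SHR/NHsd), an inbred line that develops high blood pressure, with female normotensive Wistar Kyoto rats (WKY/NHsd), which served as controls. The labels give no transgene and no treatment for either strain. The groups held 5, 4, 3, 3 and 3 WKY rats and 5, 5, 6, 6 and 6 SHRs when 8, 10, 12, 16 or 24 wk old. Each of the 46 rats gave 1 library per nucleus. Totals per library ranged from 5904570 to 17889406 counts, with a median of 10143018.

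Neuropeptides are made as larger precursors, cut by convertases in the secretory pathway, stored in dense core vesicles and released beside a fast transmitter, after which they act on G protein-coupled receptors. In the medulla they mark separate neuron populations. Gcg encodes proglucagon, which neurons of the caudal NTS process to glucagon-like peptide 1, a satiety and stress signal. Cck (cholecystokinin), Nts (neurotensin), Grp (gastrin-releasing peptide), Nmb (neuromedin B) and Nmu (neuromedin U) are known from both gut and brain. Adcyap1 encodes PACAP and Vip encodes vasoactive intestinal peptide, related ligands that share receptors. Sst encodes somatostatin, an inhibitory peptide, and Cartpt encodes the precursor of the CART peptides.

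Sst is a classic target of the cAMP-responsive factor CREB, and the levels of Sst and Cartpt ran close together over the 30 groups of nucleus, strain and age (Pearson r = 0.936 of group means, a description over groups that share rats and libraries). The promoter windows of these genes, and of Vip, whose strain difference is described below, are shown for that reason. They run from 250 bases before to 50 bases after the gene start in RefSeq on build GRCr8. Capitals mark the cAMP response element TGACGTCA in the first and second sequence and its shorter form TGACG in the third.
Sst, chr11:90461296-90461595, plus strand: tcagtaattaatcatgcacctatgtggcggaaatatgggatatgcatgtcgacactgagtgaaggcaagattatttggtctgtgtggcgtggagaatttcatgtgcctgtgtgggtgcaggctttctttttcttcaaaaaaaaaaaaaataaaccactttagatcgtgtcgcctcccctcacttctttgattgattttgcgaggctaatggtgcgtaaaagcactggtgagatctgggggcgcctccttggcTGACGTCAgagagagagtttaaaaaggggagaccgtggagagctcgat
Cartpt, chr2:32991186-32991485, minus strand: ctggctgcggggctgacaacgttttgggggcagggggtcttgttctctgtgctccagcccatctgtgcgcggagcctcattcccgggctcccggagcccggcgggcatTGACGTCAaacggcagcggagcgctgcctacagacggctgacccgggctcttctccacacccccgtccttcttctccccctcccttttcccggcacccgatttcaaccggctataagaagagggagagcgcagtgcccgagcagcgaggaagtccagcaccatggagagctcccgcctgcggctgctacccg
Vip, chr1:44470230-44470529, plus strand: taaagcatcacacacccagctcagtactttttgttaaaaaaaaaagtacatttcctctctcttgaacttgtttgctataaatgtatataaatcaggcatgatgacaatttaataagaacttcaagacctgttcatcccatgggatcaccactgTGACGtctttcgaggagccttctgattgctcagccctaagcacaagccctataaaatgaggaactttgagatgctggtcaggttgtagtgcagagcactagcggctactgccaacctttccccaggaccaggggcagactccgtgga
Both strands were searched, and the shorter motif lies within the full one. Of the 10 members 9 had an entry. The full element stood in 2 of these 9 and in 1.83% of the 33469 promoter windows. Its first base lay at -142 from the gene start in Cartpt and at 3 in Sst. The shorter form stood in 6 of the 9 members and in 21.2% of all windows, and in Vip its first base lay at -97. Nmu and Gcg ran slightly closer together than Sst and Cartpt (r = 0.939), and neither has the full element. Regulation of these genes by CREB was not tested.

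The punches were checked against marker genes. Pnmt, the adrenaline-synthesizing enzyme, averaged 42.8 CPM (counts scaled to library size) in the CVLM, 23.8 CPM in the RVLM and 4.57 CPM in the NTS. The other catecholamine markers were lowest in the RVLM. Th averaged 134, 54.5 and 132 CPM in the same order, Dbh 82.3, 11.9 and 67.4 CPM, and Slc6a2 7.70, 3.02 and 8.62 CPM. Markers of cholinergic motor neurons summed to a median of 1360.5 CPM in WKY rats in the RVLM, against 109 CPM in the CVLM. In the CVLM library of WKY 10 wk replicate 4 the serotonin neuron marker Tph2 stood at 122 CPM, where no other CVLM library passed 16.3 CPM. In the NTS library of WKY 12 wk replicate 2 the choroid plexus marker Ttr reached 4293 CPM. Library names end in a number, 1 or 2, whose meaning was not given. Number 2 was carried by all 10 wk rats, by 3 WKY rats at 8 wk and by 1 SHR each at 12 and 24 wk. All CPM values are scaled across the libraries of all nuclei and not corrected for transcript length, so levels of different genes are not compared.

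**Figure D1:**
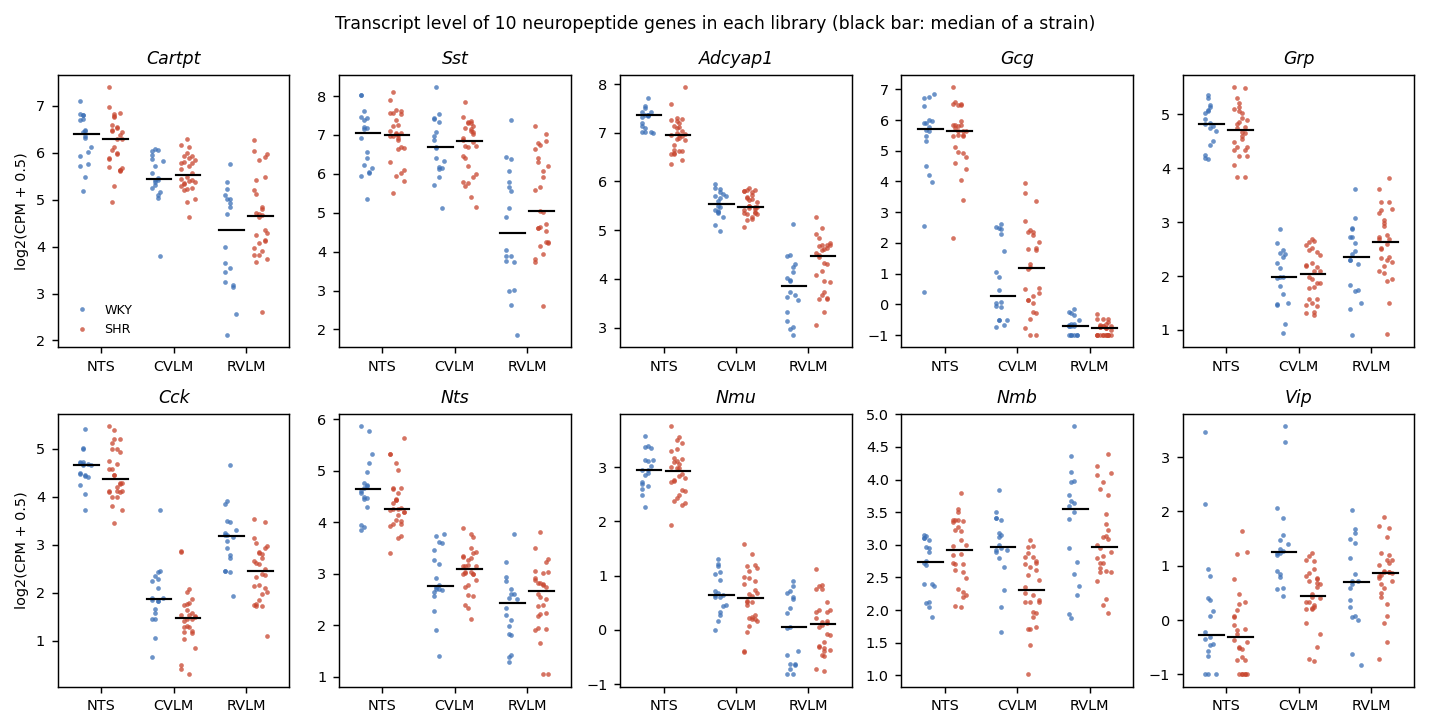
Each dot is 1 library, placed by nucleus on the horizontal axis and by log2(CPM + 0.5) on the vertical axis, with WKY rats and SHRs in separate colors and the median of each strain as a black bar. Gcg, Cck, Grp, Nmu, Nts and Adcyap1 were highest in the NTS. Vip had its lowest median there, but in WKY rats NTS and RVLM were not told apart.

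The nuclei differed in most of the peptide genes. In a single fit over all libraries with the rat as a block (edgeR quasi-likelihood test, Benjamini-Hochberg adjustment over 14043 genes, called at an adjusted p under 0.05), 8 of 10 members in WKY rats differed between NTS and CVLM, 9 between NTS and RVLM, and 8 between CVLM and RVLM. Among all genes 52.5%, 64.2% and 41.1% were called in these comparisons. In SHRs 9 of 10 members were called in each pair, beside 55.9%, 64.4% and 44.3% of all genes. In WKY rats 7 of the 8 members called against the CVLM and 8 of the 9 called against the RVLM had their higher level in the NTS, a direction called for 26.5% and 31.0% of all genes. Gcg and Nmu passed the expression filter in the NTS and CVLM but not in the RVLM, so their entry into the fit favoured a difference from the RVLM. Of the 8 members that passed in both NTS and RVLM, 7 were called in WKY rats and 6 of these were higher in the NTS, beside 63.4% and 29.2% of all genes that passed in both. In bulk punches fewer cells of a type and less RNA per cell cannot be told apart.

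Gcg showed the steepest gradient of the 10 members. Its level averaged 52.4 ± 31.3 CPM (SD, n = 46) in the NTS, 2.61 ± 3.22 CPM in the CVLM and 0.102 ± 0.107 CPM in the RVLM. All RVLM libraries together held 26 Gcg counts in WKY rats and 25 in SHRs, and 6 of 18 and 12 of 28 libraries held none. Scaled for depth, summed counts in the NTS were 392 times those of the RVLM in WKY rats (95% Poisson interval 267 to 600.3) and 608 times in SHRs (412 to 939.5), intervals that cover counting error only. Against the CVLM the log2 difference of Gcg was 4.87 ± 0.33 (SE) in WKY rats and 4.41 ± 0.25 in SHRs (adjusted p = 1.89e-23 and 1.67e-28).

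Gcg also varied widely between rats within the NTS. The WKY libraries held 105, 50.4, 63.8, 62.7 and 115 CPM at 8 wk and 88.1, 58.8, 49.8 and 15.2 CPM at 10 wk. They held 0.815, 22.3 and 18.2 CPM at 12 wk, 5.33, 44.0 and 53.9 CPM at 16 wk and 59.0, 39.1 and 108 CPM at 24 wk. SHR libraries ranged from 3.93 to 135 CPM with a median of 49.3 CPM. Low and high libraries thus occurred in both strains, and no strain difference of Gcg was called in the NTS or CVLM. The library with the least Gcg, WKY 12 wk replicate 1, also held the most Vip of all NTS libraries, 10.5 CPM, where the median was 0.322 CPM. Its Pnmt level, 17.1 CPM, was the highest of the NTS as well.

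Cck, Grp and Nmu were highest in the NTS. Cck averaged 23.7 ± 8.03 CPM in the NTS, 6.83 ± 3.99 CPM in the RVLM and 3.01 ± 1.99 CPM in the CVLM (SD, n = 46 each). Grp averaged 27.3 ± 7.88 CPM, 5.71 ± 2.79 CPM and 3.69 ± 1.34 CPM in the same order. For Cck and Grp the mean was lowest in the CVLM. For Cck the log2 difference between NTS and CVLM was 2.77 ± 0.19 (SE) in WKY rats (adjusted p = 5.49e-24) and 3.21 ± 0.16 in SHRs (adjusted p = 1.01e-33). The difference of Grp between CVLM and RVLM was called in SHRs (-0.71 ± 0.13, adjusted p = 2.2e-06) and missed the threshold in WKY rats (-0.37 ± 0.16, adjusted p = 0.0633). The test of the strains against each other in this respect was not called (adjusted p = 0.84). Nmu averaged 7.36 ± 2.15 CPM in the NTS, 1.12 ± 0.507 CPM in the CVLM and 0.613 ± 0.423 CPM in the RVLM, where no library held more than 12 counts.

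Neurotensin and PACAP transcripts were highest in the NTS, intermediate in the CVLM and lowest in the RVLM. Nts averaged 24.2 ± 10.7 CPM, 7.98 ± 2.84 CPM and 5.59 ± 2.73 CPM in this order (SD, n = 46). The smallest step, CVLM against RVLM, was 0.60 ± 0.18 (SE) on the log2 scale in WKY rats (adjusted p = 0.00396) and 0.53 ± 0.14 in SHRs (adjusted p = 0.00107). Adcyap1 averaged 139 ± 33.7 CPM, 46.2 ± 7.55 CPM and 18.2 ± 7.69 CPM. Its NTS level exceeded that of the RVLM 11.02-fold in WKY rats (log2 difference 3.46 ± 0.15, adjusted p = 4.59e-38) and 6.32-fold in SHRs (2.66 ± 0.11, adjusted p = 2.99e-38).

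Somatostatin and CART precursor transcripts were lowest in the RVLM. Sst averaged 133 ± 59.6 CPM in the NTS, 114 ± 54.1 CPM in the CVLM and 47.5 ± 41.5 CPM in the RVLM (SD, n = 46). The NTS and CVLM were not told apart in WKY rats (0.11 ± 0.22 on the log2 scale, adjusted p = 0.702) or SHRs (0.28 ± 0.18, adjusted p = 0.174). RVLM levels of Sst spanned 3.12 to 166 CPM. Cartpt averaged 80.5 ± 29.2 CPM, 47.7 ± 13.5 CPM and 26.7 ± 17.6 CPM in NTS, CVLM and RVLM, and every pair was called in both strains.

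Vip and Nmb departed from this order. Vip averaged 0.787 ± 1.65 CPM in the NTS, 1.67 ± 2.003 CPM in the CVLM and 1.36 ± 0.828 CPM in the RVLM. In WKY rats the log2 difference of Vip between NTS and CVLM was -1.84 ± 0.43 (SE, adjusted p = 0.000201), and that between CVLM and RVLM 1.12 ± 0.41 (adjusted p = 0.0215). The second call was lost without the number-2 libraries outside 10 wk, at 0.66 (adjusted p = 0.228), and without the rats whose age labels conflict, at 0.97 (adjusted p = 0.0552). In SHRs the NTS held less Vip than the CVLM (-0.94 ± 0.38, adjusted p = 0.0274) and the RVLM (-1.50 ± 0.37, adjusted p = 0.000209). The call against the CVLM was lost when the rat was not a block, at -0.81 (adjusted p = 0.0546). Not called were NTS against RVLM in WKY rats (-0.72 ± 0.45, adjusted p = 0.151) and CVLM against RVLM in SHRs (-0.56 ± 0.34, adjusted p = 0.184). Nmb averaged 6.86 ± 2.40 CPM in the NTS, 5.91 ± 2.57 CPM in the CVLM and 9.80 ± 5.48 CPM in the RVLM.

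Strain differences were called among these genes at shares near those of all genes, and each one called was lower in SHRs. All 10 members passed the expression filter in the NTS and CVLM and 8 in the RVLM, where Nmu and Gcg did not, which left 28 combinations of gene and nucleus. Averaged over the 5 ages, 4 of the 28 were called, beside 11.4% of all gene tests. They were 1 of 10 in the NTS, 2 of 10 in the CVLM and 1 of 8 in the RVLM, beside 11.2%, 12.3% and 10.8% of all genes. Called as lower in SHRs were 5.83% of all gene tests and as higher 5.59%. At single ages 2 of 140 tests were called, both for Vip in the CVLM, beside 3.87% of all such tests. WKY rats and SHRs did not overlap in 8 of the 140, beside 6.18%. These shares are near the background, so what follows describes single genes.

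**Figure D2:**
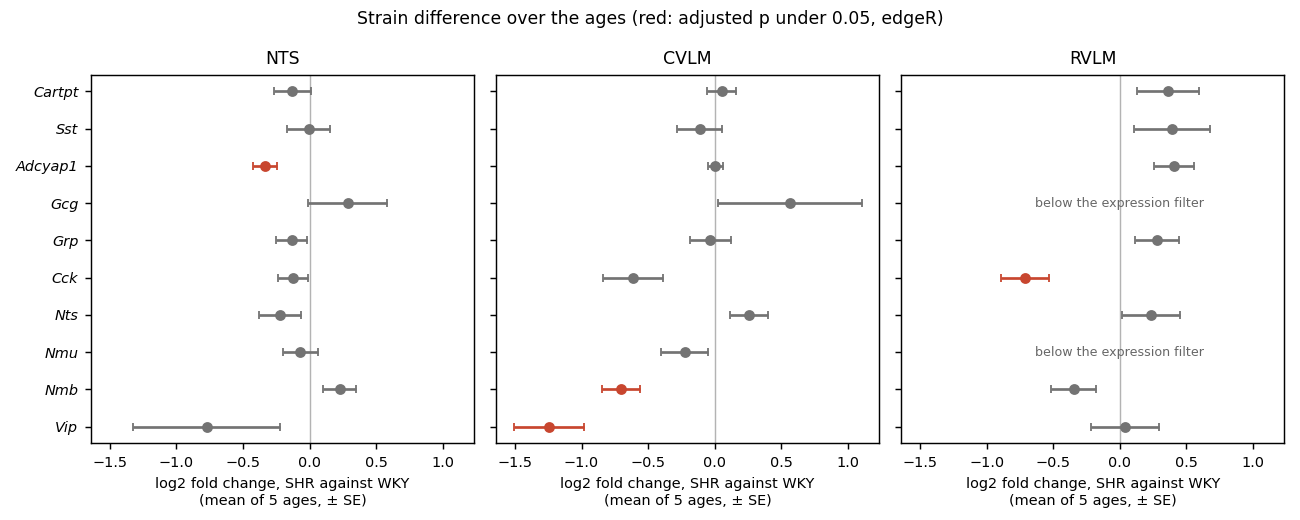
Points give the log2 fold change of SHRs against WKY rats averaged over 5 ages in each nucleus, with the SE as bars, and red marks an adjusted p under 0.05. Vip and Nmb in the CVLM, Cck in the RVLM and Adcyap1 in the NTS are the red points, and all 4 lie below 0.

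Vip in the CVLM was 2.37-fold lower in SHRs over the ages (log2 difference -1.25 ± 0.27 SE, adjusted p = 0.000582). The counts were low, between 1 and 139 per library. At 8 wk the WKY libraries held 1.86, 1.87, 3.16, 11.4 and 2.14 CPM and the SHR libraries 0.653, 1.33, 1.84, 0.686 and 1.22 CPM. At 10 wk the WKY libraries held 3.67, 1.99, 1.90 and 9.14 CPM and the SHR libraries 0.765, 1.15, 0.838, 1.42 and 1.11 CPM. The strains did not overlap at these ages, although the lowest WKY library and the highest SHR library at 8 wk lay close together. At 12 wk the WKY libraries held 1.80, 1.29 and 1.01 CPM, and the SHR libraries 0.109 to 1.63 CPM with a median of 0.958 CPM. At 16 wk 0.991, 1.23 and 2.47 CPM in WKY rats faced 0.0919 to 1.77 CPM with a median of 0.555 CPM in SHRs. At 24 wk 1.38, 2.26 and 0.853 CPM faced 0.212 to 1.66 CPM with a median of 0.742 CPM. From 12 wk on the strains overlapped, with the mean of SHRs below that of WKY rats at each age.

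The calls of Vip at single ages were lost without 1 WKY library each. The log2 differences were -1.81 ± 0.53 at 8 wk (adjusted p = 0.0276) and -1.97 ± 0.53 at 10 wk (adjusted p = 0.0243). Without WKY replicate 4 of the same age they were -0.93 (adjusted p = 0.361) and -1.23 (adjusted p = 0.401). The 10 wk library is the one with the serotonin marker, whose part in the Vip level was not tested. The test at 8 wk also missed the threshold without SHR replicate 1, 2 or 4, and that at 10 wk without SHR replicate 1, 3 or 5 (adjusted p from 0.0507 to 0.0871), while the log2 differences, -1.64, -1.86 and -1.70 at 8 wk and -1.85, -1.90 and -1.98 at 10 wk, stayed about as large. Both WKY libraries named here carry number 2. With the library number as a term the difference was -1.19 (adjusted p = 0.568) at 8 wk, -1.97 (adjusted p = 0.0178) at 10 wk and -1.18 (adjusted p = 0.00104) over the ages. Over the ages the difference was called in all 46 fits that left out 1 rat, with an adjusted p of at most 0.00278. In the NTS and RVLM the differences of Vip over the ages were -0.77 ± 0.55 and 0.04 ± 0.26 and were not called. The strain differences in CVLM and RVLM were not told apart by their own test (-1.67 ± 0.53, adjusted p = 0.202).

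Nmb, which encodes a bombesin-like peptide, was 1.62-fold lower in the CVLM of SHRs over the ages (log2 difference -0.70 ± 0.14 SE, adjusted p = 0.000304). At 8 wk the WKY libraries held 10.1, 13.8, 8.38, 5.80 and 7.10 CPM and the SHR libraries 6.01, 6.85, 7.90, 6.52 and 6.27 CPM. At 10 wk 7.05, 8.15, 3.62 and 4.44 CPM in WKY rats faced 4.27, 2.78, 2.77, 3.22 and 2.85 CPM in SHRs. The SHR libraries lay in the lower part of the WKY range or below it at these ages. At 12 wk the WKY libraries held 10.2, 6.45 and 7.23 CPM, and the SHR libraries 1.52 to 7.40 CPM with a median of 4.90 CPM. At 16 wk 6.94, 8.54 and 2.68 CPM faced 2.27 to 6.08 CPM with a median of 4.23 CPM, with 1 WKY library near the bottom of the SHR range. At 24 wk the WKY values, 10.8, 7.46 and 9.87 CPM, were all above the SHR values, 3.84 to 7.32 CPM with a median of 4.60 CPM. Nmb was not called at any single age, and its lowest adjusted p was 0.0658 at 24 wk.

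The strain difference of Nmb differed between NTS and CVLM. It was 0.23 ± 0.12 in the NTS (adjusted p = 0.294) and -0.35 ± 0.17 in the RVLM (adjusted p = 0.219). The difference between the strain effects in NTS and CVLM was 0.98 ± 0.22 on the log2 scale and was called (adjusted p = 0.0125), one of 2 such calls in 30 tests of members. For Nmb the pairs NTS and RVLM (0.51 ± 0.22, adjusted p = 0.251) and CVLM and RVLM (-0.47 ± 0.22, adjusted p = 0.623) were not called. Over all genes 0.328% were called for NTS against CVLM, 1.93% for NTS against RVLM and 0.385% for CVLM against RVLM. In SHRs the log2 difference of Nmb between NTS and CVLM was 0.60 ± 0.14 (adjusted p = 0.000132), and in WKY rats -0.37 ± 0.17 (adjusted p = 0.0569).

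Other cell markers moved beside Vip and Nmb in the CVLM. Of 4 oligodendrocyte markers 3 were lower in SHRs, and the sum of all 4 ranged from 37164 to 62934 CPM in SHRs and from 37354 to 71605 CPM in WKY rats. The median sums were 46136 CPM in SHRs and 52362.5 CPM in WKY rats. Of 4 microglia markers 2 were lower in SHRs, with sums from 56.9 to 100.4 CPM against 63.7 to 118 CPM. Higher in SHRs were both of the 2 tested cerebellar markers, with list sums from 11.5 to 19.96 CPM against 8.14 to 18.1 CPM. Gabra6 and Pcp2 of that list averaged only 0.0734 and 0.0024 CPM in the CVLM. Also higher was 1 of 2 tested choroid plexus markers, with list sums from 1.44 to 6.84 CPM against 0.317 to 197 CPM. None of 4 neuron markers was called. Among all genes 12.3% were called over the ages in the CVLM. The part of these marker shifts in the Vip and Nmb results was not tested.

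**Figure D3:**
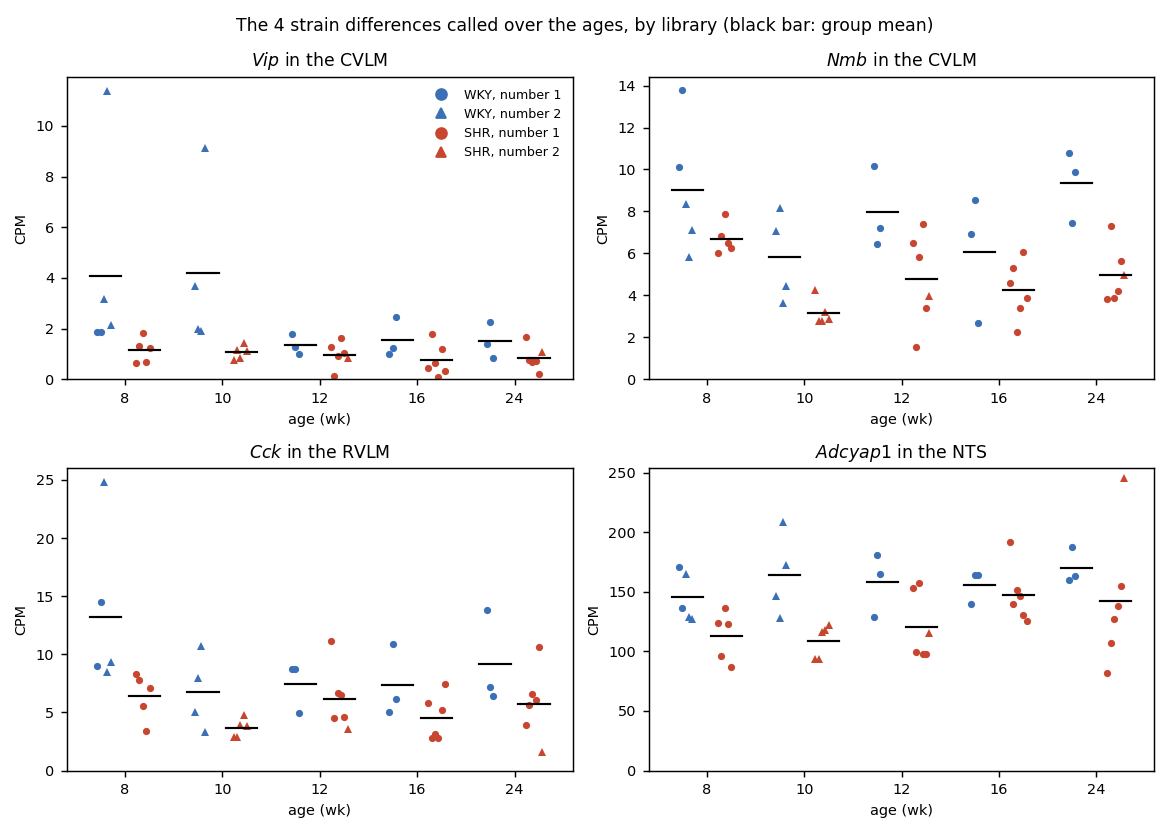
Each panel shows 1 gene in the nucleus where it was called, with age on the horizontal axis and CPM on the vertical axis, circles and triangles for library names ending in 1 and 2, and black bars for group means. The mean of SHRs lies below that of WKY rats at every age in all 4 panels, and Vip has 1 WKY library each at 11.4 CPM (8 wk) and 9.14 CPM (10 wk).

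Cck in the RVLM was 1.64-fold lower in SHRs over the ages (log2 difference -0.71 ± 0.18 SE, adjusted p = 0.00468). At 8 wk the WKY libraries held 9.02, 14.5, 24.8, 8.50 and 9.36 CPM, all above the SHR libraries at 8.34, 7.76, 5.59, 3.42 and 7.11 CPM. At 10 wk 4.99, 7.95, 10.7 and 3.35 CPM in WKY rats faced 2.88, 2.92, 3.96, 4.75 and 3.82 CPM in SHRs. From 10 wk on the strains overlapped. At 12 wk the WKY libraries held 8.70, 8.72 and 4.92 CPM, and the SHR libraries 3.55 to 11.1 CPM with a median of 5.57 CPM. At 16 wk 4.998, 10.8 and 6.15 CPM faced 2.81 to 7.41 CPM with a median of 4.16 CPM. At 24 wk 13.8, 7.18 and 6.41 CPM faced 1.64 to 10.6 CPM with a median of 5.85 CPM. The median of SHRs lay below the median of WKY rats at these ages. The call held in all 46 fits that left out 1 rat, with an adjusted p of at most 0.0202. In this nucleus 2 of 4 oligodendrocyte markers were lower in SHRs, with sums from 31459.6 to 51453 CPM against 33000.5 to 64961 CPM, and 1 of 4 microglia markers was lower. Higher in SHRs were 1 of 4 astrocyte markers, with sums from 828 to 2299 CPM against 780.1 to 1982 CPM, and the 1 tested cerebellar marker, with list sums from 5.48 to 16.9 CPM against 2.31 to 9.48 CPM. Gabra6 and Pcp2 of the cerebellar list averaged only 0.0989 and 0 CPM in the RVLM. Among all genes 10.8% were called over the ages in the RVLM. The part of these markers in the Cck result was not tested.

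Cck had no uniform strain effect elsewhere. In the CVLM its difference over the ages was -0.61 ± 0.23 (adjusted p = 0.0713). In the NTS at 8 wk the SHR libraries, 26.2, 34.1, 41.1, 31.4 and 36.1 CPM, all lay above the WKY libraries, 25.4, 25.9, 12.6, 25.2 and 24.9 CPM. At 16 wk the SHR libraries, 15.5 to 21.4 CPM with a median of 17.9 CPM, all lay below the WKY libraries, 22.2, 31.4 and 42.2 CPM. Neither age was called (log2 differences 0.54 ± 0.23 and -0.83 ± 0.25, adjusted p = 0.143 and 0.102). At 8 wk 3 of the 5 WKY libraries and no SHR library carry number 2. With the library number as a term the differences were 0.17 (adjusted p = 0.858) at 8 wk and -0.83 (adjusted p = 0.0484) at 16 wk, so the later one was then called.

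Adcyap1 in the NTS was 1.26-fold lower in SHRs over the ages (log2 difference -0.34 ± 0.09 SE, adjusted p = 0.00724). At 8 wk the WKY libraries held 170.5, 137, 165, 129 and 127 CPM and the SHR libraries 124, 95.9, 136, 123 and 86.6 CPM. At 10 wk 146, 128, 209 and 173 CPM in WKY rats lay above 93.6, 93.6, 116, 118 and 122 CPM in SHRs. The strains were separate at 10 wk and overlapped at 8 wk. At 12 wk the WKY libraries held 129, 181 and 165 CPM, and the SHR libraries 98.0 to 158 CPM with a median of 108 CPM. At 16 wk 139.5, 164 and 164 CPM faced 125 to 192 CPM with a median of 143 CPM. At 24 wk 160.0, 187 and 163 CPM faced 81.8 to 245 CPM with a median of 133 CPM. The highest value of all belonged to the only SHR library with number 2 at 24 wk. No single age was called, and the differences ran from -0.55 ± 0.19 at 10 wk (adjusted p = 0.096) to -0.09 ± 0.21 at 16 wk. The call over the ages held in all 46 fits that left out 1 rat, and its highest adjusted p, 0.02, came without WKY 12 wk replicate 2, the library with the choroid plexus marker. In the NTS 1 of 3 GABA neuron markers was lower in SHRs, with sums from 428 to 831 CPM against 472 to 855 CPM. Also lower in SHRs were 3 of 4 choroid plexus markers, with median sums of 4.26 against 4.82 CPM, and 1 of 4 microglia markers, with 98.8 against 106 CPM. The choroid plexus sums ranged from 1.86 to 9.49 CPM in SHRs and from 2.80 to 4362 CPM in WKY rats. WKY 12 wk replicate 2 held the highest NTS level of each choroid plexus marker. Of 4 oligodendrocyte markers 1 was lower, although their median sum was higher in SHRs, at 25721 against 24345 CPM. Among all genes 11.2% were called over the ages in the NTS. The part of these markers in the Adcyap1 result was not tested.

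In the RVLM the estimate for Adcyap1 had the opposite sign, 0.41 ± 0.15 over the ages (adjusted p = 0.074), and in the CVLM it was 0.00 ± 0.06 (adjusted p = 0.987). The strain effects in NTS and RVLM differed by -0.80 ± 0.17 (adjusted p = 0.0023), which is the other of the 2 calls in 30 tests. Those in NTS and CVLM (-0.31 ± 0.17, adjusted p = 0.85) and in CVLM and RVLM (-0.50 ± 0.18, adjusted p = 0.316) were not told apart. Adcyap1 levels in the RVLM ranged from 6.70 to 34.2 CPM in WKY rats (median 13.9 CPM) and from 7.81 to 38.2 CPM in SHRs (median 21.7 CPM).

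For the remaining members no strain difference passed the threshold. Over the ages the log2 differences of Sst were -0.01 ± 0.16, -0.11 ± 0.17 and 0.39 ± 0.28 in NTS, CVLM and RVLM. Those of Cartpt were -0.13 ± 0.14, 0.05 ± 0.11 and 0.36 ± 0.23 in the same order. Neurotensin differed by -0.22 ± 0.16, 0.26 ± 0.15 and 0.24 ± 0.22. The estimates of these genes did not share a direction across the nuclei. Grp differed by -0.13 ± 0.12, -0.03 ± 0.15 and 0.28 ± 0.16. Nmu differed by -0.07 ± 0.13 in the NTS and -0.22 ± 0.18 in the CVLM. For Gcg the values were 0.29 ± 0.30 and 0.56 ± 0.54, and the SE in the CVLM is wide enough to hold differences as large as those called for other genes. The strain by age interaction was called for 0 of 28 combinations by edgeR and by DESeq2, beside 0.0148% of all gene tests by edgeR. At an unadjusted p under 0.05 there was 1 combination, Cck in the NTS, beside 9.97% of all gene tests.

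Over age, Sst was the gene called in the most nuclei, and the 10 wk libraries stood apart. In SHRs the F test over the 5 ages called 11 of 28 combinations, beside 17.6% of all gene tests, and in WKY rats 4 of 28, beside 13.8%. Sst was called in all nuclei of SHRs (edgeR, in the order NTS, CVLM, RVLM, adjusted p = 0.0421, 0.0156 and 0.0116) and in WKY rats in the RVLM (adjusted p = 0.0166). The NTS means, in order of age from 8 wk on, were 185, 69.8, 146, 139 and 129 CPM in SHRs and 109.6, 71.3, 184, 191 and 127 CPM in WKY rats. In the CVLM they were 159.6, 52.3, 129, 116 and 102 CPM in SHRs and 128, 57.8, 152, 110.4 and 146 CPM in WKY rats. The RVLM means were 46.1, 15.8, 73.3, 90.8 and 30.003 CPM in SHRs and 18.2, 9.76, 48.7, 102 and 42.3 CPM in WKY rats. The lowest mean fell at 10 wk in every nucleus and strain.

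The library number moved with this result, a comparison chosen after seeing the data. In the NTS at 8 wk the 2 WKY libraries with number 1 held 176 and 197 CPM of Sst, and the 3 with number 2 held 40.1 to 70.7 CPM. The single number-2 library of SHRs held 68.1 CPM at 12 wk, where the other 5 ranged from 103 to 236 CPM, and 56.0 CPM at 24 wk, where the other 5 ranged from 121 to 194 CPM. Number 2 was lowest in each of these groups, and it was so in the CVLM as well. Within groups the log2 difference of Sst between number 2 and number 1 was -1.44 ± 0.23, -1.47 ± 0.24 and -1.67 ± 0.51 in NTS, CVLM and RVLM (edgeR, adjusted p = 2.79e-05, 5.62e-05 and 0.0221). In the NTS it was -0.61 ± 0.21 for Cck (adjusted p = 0.0273), -0.72 ± 0.22 for Nmb (adjusted p = 0.0124) and 0.78 ± 0.28 for neurotensin (adjusted p = 0.0331). These are 6 calls of 28, beside 25.6%, 21.6% and 16.4% of all genes in NTS, CVLM and RVLM. As all 10 wk libraries carry number 2, the age of 10 wk and the number cannot be told apart at that age. With the number as a term, 0 of 28 age courses were called by edgeR in either strain, beside 0.163% of all gene tests in WKY rats and 0.458% in SHRs.

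**Figure D4:**
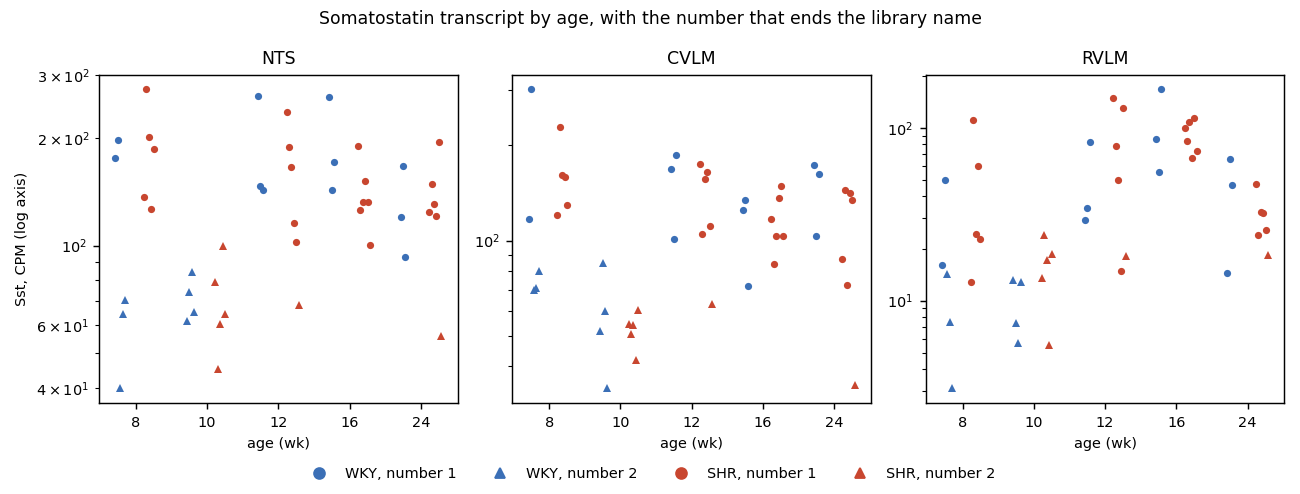
Sst in CPM on a log axis against age in the NTS, CVLM and RVLM, by strain, with circles and triangles for library names ending in 1 and 2. Triangles lie lowest at 8, 12 and 24 wk in the NTS and CVLM, and at 10 wk every library is a triangle.

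The other age courses called were spread over 6 genes. Cck in the NTS of SHRs (adjusted p = 0.00374) averaged 33.8, 14.6, 23.0, 18.0 and 27.2 CPM in order of age. Nmb was called in SHRs in the NTS and RVLM (adjusted p = 0.0343 and 0.0136) and in WKY rats in the RVLM (adjusted p = 0.0174), where its means were 8.76, 4.50, 11.9, 18.6 and 15.1 CPM. Cck and Nmb thus had their lowest mean at 10 wk here. Grp in the RVLM was called in both strains (adjusted p = 0.0324 in WKY rats and 0.0218 in SHRs), also with its lowest means at 10 wk. Adcyap1 in the CVLM was called in both strains (adjusted p = 0.0404 and 0.0141), with its lowest means at 12 wk, 36.6 CPM in WKY rats and 38.4 CPM in SHRs. Cartpt was called in the CVLM and RVLM of SHRs (adjusted p = 0.0295 and 0.0409) and Nmu in the CVLM of SHRs (adjusted p = 0.0131). Between 8 and 24 wk 0 of 56 tests were called by edgeR and by DESeq2, beside 2.57% of all such tests by edgeR. At an unadjusted p under 0.05 there were 4, beside 16.0% of all such tests.

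Receptors of these peptides formed a list of 20 genes, of which 19 had a row in the tables. The filter was passed by 15, 11 and 10 in NTS, CVLM and RVLM. Over the ages 1, 0 and 2 of them were called in these nuclei, beside 11.2%, 12.3% and 10.8% of all genes, which is near the background. The 3 calls were higher in SHRs. Sstr3 differed by 0.42 ± 0.10 in the NTS (adjusted p = 0.00214) and by 0.61 ± 0.18 in the RVLM (adjusted p = 0.0237), and Sstr2 by 0.55 ± 0.17 in the RVLM (adjusted p = 0.0307). Both genes encode inhibitory receptors of somatostatin. No receptor was called at a single age. The median log2 difference of the list was -0.05, 0.04 and 0.14 in NTS, CVLM and RVLM, against 0.01, 0.00 and 0.01 for all genes.

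Between nuclei 8 of the 9 receptors that passed the filter in both NTS and RVLM were called in WKY rats, 6 of them higher in the NTS, beside 63.4% and 29.2% of all genes that passed in both. The counts in SHRs were the same, beside 63.6% and 30.6%. Between NTS and CVLM 6 of 11 were called in WKY rats, 3 in each direction, and in SHRs 7, with 3 higher and 4 lower in the NTS, beside 51.8% and 55.2% of all genes that passed in both. A higher level in the NTS was called for 25.2% and 27.8% of them. Receptors that passed only where they are high are described by their levels. Sstr5 averaged 2.20 CPM in the NTS, 0.167 CPM in the CVLM and 0.0323 CPM in the RVLM. Cckar, a cholecystokinin receptor, averaged 2.43, 0.488 and 0.204 CPM, and Nmur2, a neuromedin U receptor, 3.57, 1.07 and 0.407 CPM. Cckar passed only in the NTS, and Nmur2 did not pass in the RVLM. The filter thus favoured their match with the nucleus that held the most Cck and Nmu. Cckbr, another cholecystokinin receptor, passed in all nuclei and was highest in the CVLM, where Cck was lowest. It averaged 3.31, 3.83 and 2.53 CPM in NTS, CVLM and RVLM. Of the other receptors that passed in all nuclei, Sstr1, Sstr3, Ntsr2 and Adcyap1r1 had their highest mean in the NTS. Sstr2 and Ntsr1 had it in the CVLM, and Sort1 and Vipr2 in the RVLM. Glp1r, the receptor of glucagon-like peptide 1, averaged 3.22 CPM in the NTS, 4.67 CPM in the CVLM and 0.783 CPM in the RVLM. Its CVLM level exceeded that of the RVLM 9.47-fold in WKY rats (log2 difference 3.24 ± 0.24 SE, adjusted p = 2.6e-22). Glp1r did not pass the filter in the RVLM and entered this fit through the other nuclei. The strain effects in NTS and RVLM, called different for 1.93% of all genes, differed for Sstr2 (-0.64 ± 0.18, adjusted p = 0.0349). They also differed for Glp1r (-1.06 ± 0.30, adjusted p = 0.0372), which did not pass the filter in the RVLM.

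Genes that process, package or degrade peptides formed a list of 16, of which 14, 14 and 15 passed the filter in NTS, CVLM and RVLM, while Pcsk1n was listed at 0 in every library. Over the ages 1, 0 and 2 were called, all lower in SHRs, beside 11.2%, 12.3% and 10.8% of all genes in either direction, which is near the background. They were Pcsk1, a convertase that cleaves peptide precursors, in the NTS (-0.27 ± 0.08, adjusted p = 0.0302), and in the RVLM the vesicle granin Chga (-0.21 ± 0.07, adjusted p = 0.0235) and Dpp4, a peptidase that degrades glucagon-like peptide 1 (-0.92 ± 0.24, adjusted p = 0.00552). Dpp4 was low in the RVLM, at a mean of 0.950 CPM (0.126 to 2.74 CPM), and did not pass the filter in the NTS or CVLM. At single ages 2 of 70 tests in the NTS, 1 of 70 in the CVLM and none of 75 in the RVLM were called, beside 3.87% of all such tests. In the NTS Chga was higher at 8 wk in SHRs (0.36 ± 0.11, adjusted p = 0.0469), Scg2 lower at 10 wk (-0.35 ± 0.10, adjusted p = 0.0262) and Scg5 lower in the CVLM at 24 wk (-0.41 ± 0.11, adjusted p = 0.0186). The median log2 difference of the list over the ages was 0.03, 0.01 and 0.02 in the 3 nuclei.

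Between nuclei Scg2, a granin and precursor of secretoneurin, averaged 1416 CPM in the NTS, 833 CPM in the CVLM and 442 CPM in the RVLM. Pcsk1 averaged 57.7, 26.8 and 23.8 CPM in this order. These genes shared the NTS as their highest nucleus with most of the peptides. Mme, the peptidase neprilysin, was highest in the CVLM at 6.94 CPM, and Chga was highest in the RVLM at 302 CPM against 204 CPM in the NTS. The strain effects in NTS and RVLM, called different for 1.93% of all genes, differed for Pcsk1 (-0.37 ± 0.10, adjusted p = 0.0158), Scg2 (-0.46 ± 0.13, adjusted p = 0.0273) and Chga (0.31 ± 0.05, adjusted p = 5.71e-05).

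The genes most like each member over the 30 group means were sought among 10268 genes, as Pearson r of log2(CPM + 0.5) with no test, over groups that share rats and libraries. Adcyap1 was most like Zcchc12 (r = 0.994) and Scn3b (r = 0.993). Cartpt was most like Resp18 (r = 0.978) and Nrsn2 (r = 0.968). Nmu was most like Cpne5 (r = 0.979) and Syt5 (r = 0.977). Neurotensin was nearest to Srr (r = 0.972) and Sstr1 (r = 0.966), the second a somatostatin receptor. Grp was nearest to Gstm1 (r = 0.971) and Iqcd (r = 0.970), and Gcg to Fam107a (r = 0.965) and Rarb (r = 0.957). Sst was nearest to Cx3cl1 (r = 0.951) and Hpca (r = 0.946), and Cck to Cldn9 (r = 0.944) and Tnfaip8l3 (r = 0.934). Vip and Nmb had no close match. Vip reached Crhbp (r = 0.733) and Myo1e (r = 0.724), and Nmb Trex1 (r = 0.775) and Zfp24 (r = 0.774). Between members, Nmu and Gcg (r = 0.939) and Cartpt and Sst ran closest, and the lowest value was that of Vip and Gcg (r = -0.673).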

How the data were processed

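Expected counts per gene, estimated with RSEM, were deposited by the authors, 1 table per nucleus, made from paired-end reads with STAR and RSEM on genome build rn6 and not normalized. Of the values 5.02% (NTS), 4.95% (CVLM) and 4.88% (RVLM) were not whole, and all were rounded. The study adjusted batches with ComBat_seq, but its batches are not given in the sources used here and no such adjustment was made. Genes with a maximal rlog value of at least 3.5 were kept, as in the study (13793, 13408 and 13411 genes).

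Strain differences at each age and over the ages (the mean of the 5 differences), their interaction and the age courses were tested with edgeR 4.0.16 (quasi-likelihood, robust, TMM, R 4.3.3) on 10 groups per nucleus. Region differences came from 1 fit over the libraries of all nuclei with the rat as a block. P-values were adjusted by Benjamini-Hochberg over all genes, with a threshold of 0.05. Alternatives were DESeq2 1.42.0, other scalings and filters, a replicate block, each age alone, the library number and leaving out each rat. The procedures were tested on simulated data. In the CVLM 2 libraries with an age label of 10 wk and a title of 8 wk were placed at 8 wk. Library totals ranged from 5904570 to 17889406 counts.

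Members, gene lists and tests were chosen with earlier results of these data known. All members are named, with each receptor or processing gene called over the ages or at an age, the 4 per list with the largest region difference, and the 2 genes most like each member (those with a mean of at least 5 CPM in a nucleus). The joint tests of strain effects between nuclei name listed genes that were called, chosen after their values were seen. Receptors that passed the filter in all nuclei are named by their highest nucleus, also after their values were seen.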

Additional observations from a re-analysis of the deposited data

Results flagged for a closer look

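Single libraries stood far from the others of their group, by Dixon's test at the 95% level, in 22 of 196 groups of 4 to 6 libraries, where chance gives about 1 in 20. The range of the other libraries follows each value in parentheses. For Cartpt the value was 13.4 CPM in the CVLM of WKY 10 wk replicate 4 (37.7 to 42.2 CPM). For Sst the values were 300.5 CPM in the CVLM of WKY 8 wk replicate 2 (69.6 to 117 CPM) and 49.8 CPM in the RVLM of WKY 8 wk replicate 2 (3.12 to 16.1 CPM). For Cck the values were 12.6 CPM in the NTS of WKY 8 wk replicate 3 (24.9 to 25.9 CPM), 43.8 CPM in the NTS of SHR 12 wk replicate 1 (12.7 to 23.4 CPM), 4.99 CPM in the CVLM of WKY 8 wk replicate 4 (2.49 to 3.21 CPM) and 6.81 CPM in the CVLM of SHR 24 wk replicate 1 (1.80 to 2.98 CPM). For neurotensin (Nts) the values were 39.6 CPM in the NTS of SHR 12 wk replicate 1 (12.4 to 21.2 CPM) and 49.3 CPM in the NTS of SHR 24 wk replicate 6 (10.1 to 24.8 CPM). For Adcyap1 the value was 44.8 CPM in the CVLM of SHR 10 wk replicate 3 (54.3 to 56.6 CPM). For Vip the values were 2.63 CPM in the NTS of SHR 10 wk replicate 4 (0 to 0.732 CPM), 11.4 CPM in the CVLM of WKY 8 wk replicate 4 (1.86 to 3.16 CPM) and 0.552 CPM in the RVLM of SHR 24 wk replicate 4 (1.08 to 1.37 CPM). For Nmb the value was 6.69 CPM in the NTS of SHR 10 wk replicate 1 (3.64 to 4.50 CPM). For Nmu the values were 3.34 CPM in the NTS of SHR 8 wk replicate 1 (6.88 to 8.08 CPM) and 0.644 CPM in the CVLM of SHR 16 wk replicate 4 (1.47 to 1.79 CPM). For Gcg the values were 90.4 CPM in the NTS of SHR 12 wk replicate 4 (20.9 to 44.1 CPM), 2.86 CPM in the CVLM of WKY 8 wk replicate 4 (0.103 to 0.553 CPM), 5.18 CPM in the CVLM of WKY 10 wk replicate 1 (0.133 to 0.890 CPM), 6.06 CPM in the CVLM of SHR 10 wk replicate 1 (0.317 to 1.84 CPM), 12.0 CPM in the CVLM of SHR 12 wk replicate 1 (0.957 to 4.26 CPM) and 14.9 CPM in the CVLM of SHR 24 wk replicate 1 (0 to 0.779 CPM). The Vip library at 8 wk is one of the libraries without which the call at that age was lost. The Gcg values in the CVLM belong to 5 groups of both strains and 4 ages.

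The strain difference differed between NTS and CVLM for Nmb, by 0.98 on the log2 scale, and between NTS and RVLM for Adcyap1, by -0.80. Both passed the test of the difference itself (edgeR, adjusted p = 0.0125 and 0.0023). Cck in the NTS at 8 wk was higher in every SHR than in every WKY rat (log2 difference 0.54, or 0.17 (adjusted p = 0.858) with the library number as a term), while every SHR was below the WKY rats at 16 wk in that nucleus (-0.83, or -0.83 (adjusted p = 0.0484) with that term) and in 8 wk old rats in the RVLM (-1.04). These contrasts of Cck between single ages and nuclei were not tested.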

How the results depend on the processing

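The 4 strain differences called over the ages kept their direction and their call under every alternative run, 46 that left out 1 rat each and 7 to 9 others. Of 300 alternative values of the region differences 297 kept their direction and call, and the 3 others, all for Vip, are given with that gene. Both differences of strain effects between nuclei kept theirs in all 12. Members called at single ages, 2 in the fit reported, numbered 4 by DESeq2, 0 with the replicate block and 0 without the 2 WKY libraries with the most Vip, a choice made after seeing the data. Over the ages the replicate block called 2 in the NTS in place of 1, and DESeq2 called 2 in the RVLM in place of 1. Age courses called in WKY rats, 4 as reported, numbered 10 by DESeq2, 0 with the library number as a term and 7 when number-2 libraries of other ages than 10 wk were left out. In SHRs 11 became 0 with the number as a term.

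Leaving out 1 rat at a time gave 1 to 5 calls at single ages. There were 5 without WKY 8 wk replicate 1 or SHR 12 wk replicate 1, and 4 without WKY 8 wk replicate 2 or SHR 24 wk replicate 6. There was 1 without WKY replicate 4 of 8 or 10 wk, without SHR 8 wk replicate 1, 2 or 4, or without SHR 10 wk replicate 1, 3 or 5. Over the ages the ranges were 1 to 1 for NTS, 2 to 3 for CVLM (3 without WKY 10 wk replicate 1, for example) and 1 to 2 for RVLM (2 without WKY 8 wk replicate 4, for example). Age courses ranged from 2 to 10 in WKY rats, with 10 without 8 wk replicate 2, 7 without 8 wk replicate 1 and 2 without 10 wk replicate 1 or 16 wk replicate 3. In SHRs they ranged from 6 to 12, with 6 without 10 wk replicate 4 or 5 and 7 without replicate 3. The strain by age interaction and the contrast of 24 with 8 wk stayed at 0 in all 46. The cause of these changes was not tested.

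Replicate numbers were not treated as pairs. In 33 of 54 pairs of same-numbered libraries the correlation of deviations from the group means was over 0.1, with a range of -0.373 to 0.585, and 20 correlated best with their own number. With the replicate block the Vip difference in the CVLM was -1.52 (adjusted p = 0.0618) at 8 wk and -1.76 (adjusted p = 0.0581) at 10 wk. Fitting each age alone gave -1.80 (adjusted p = 0.166) for Vip at 8 wk, and leaving out number-2 libraries outside 10 wk gave -0.63 (adjusted p = 1). Depth limits Vip, and Nmu and Gcg outside the NTS, to a few counts in many libraries.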
